A study of Mus musculus with 6 samples.

Results

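A group of 10 genes that report on protein folding stress in the endoplasmic reticulum (ER) and on the integrated stress response was examined in the mouse cerebellum. The 10 genes were listed by name for their known roles, with earlier results of these data known, and all 10 were found among the 53715 genes of the count table. Of these, 6 belong to the integrated stress response, namely *Atf4*, *Ddit3*, *Trib3*, *Asns*, *Chac1*, and *Sesn2*. The other 4, *Hspa5*, *Hsp90b1*, *Xbp1*, and *Herpud1*, are genes of the ER and of its unfolded protein response. The samples were the cerebellums of 3 control and 3 *Slc39a8*-NSKO animals, male mice at 4 weeks of age, of the strain C57BL/6 in the labels and C57BL/6J in the methods. *Slc39a8*-NSKO mice carry floxed *Slc39a8* alleles and a *Syn-Cre* transgene, so that Cre under the synapsin promoter deletes this metal transporter gene in neurons, whereas other cell types of the tissue keep it. The study describes its controls as floxed mice without Cre (*Slc39a8* fl/fl), while the sample labels call them WT. The methods state 1 cerebellum per mouse and 3 mice per genotype, but a legend speaks of technical triplicates. If the samples were not separate mice, the p values below would describe only technical spread.

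Both responses adjust protein synthesis and folding capacity to stress. In the integrated stress response, any of several kinases phosphorylates the initiation factor eIF2, which lowers protein synthesis in general while short upstream reading frames let the *Atf4* mRNA be translated. The ATF4 protein then switches on genes for amino acid supply, redox control, and, through *Ddit3*, cell death. In the unfolded protein response, the ER sensors PERK, IRE1, and ATF6 detect unfolded proteins. PERK feeds into eIF2, IRE1 splices the *Xbp1* mRNA, and cleaved ATF6 induces chaperones. RNA levels report the transcriptional arms, and neither the phosphorylation of eIF2 nor the translation of *Atf4* is measured by them.

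None of the 10 genes differed between the genotypes at an adjusted p below 0.05 in the quasi-likelihood test of edgeR, with Benjamini-Hochberg adjustment across the genes tested. All 10 passed the filter on low counts. Among all 16330 genes tested, 0.098% passed. No gene of the 10 had an unadjusted p below 0.05 either, against 5.39% of all genes, and DESeq2 and limma-voom also called 0 of the 10. Of the 10 log2 fold changes of *Slc39a8*-NSKO over control mice, 5 were above and 5 below 0, with a median of 0.0054, and the median over all genes tested was 0.0011. For 8 genes the log2 fold change was smaller than 0.1 in size. The 95% intervals of these 8 lay between −0.26 and 0.27, which corresponds to folds between 0.837 and 1.20. *Trib3* and *Chac1*, both low in abundance, had larger estimates and wider intervals. In bulk tissue a different number of cells and a different amount of RNA per cell cannot be told apart.

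**Figure D1:**
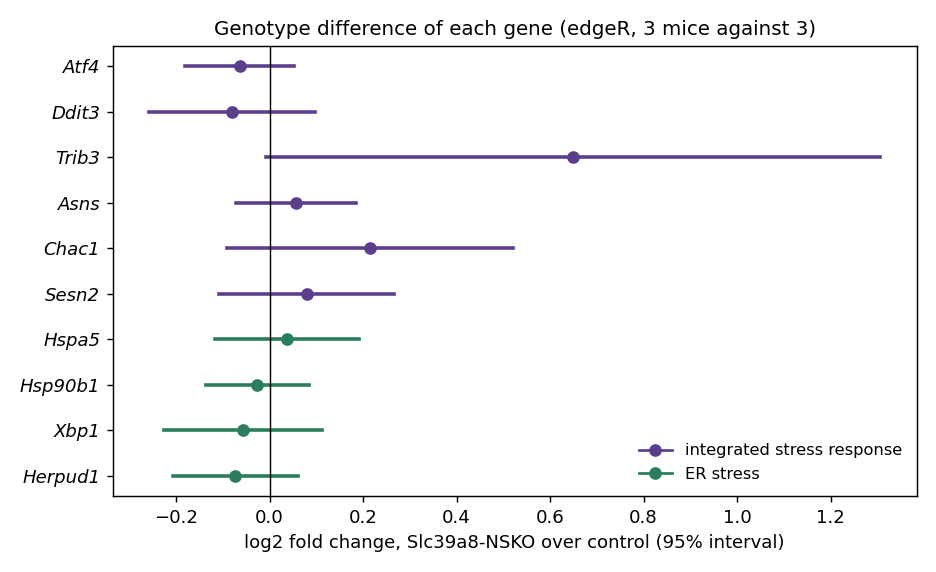
Log2 fold change of each gene (point) with its 95% interval (line) from edgeR, for 3 *Slc39a8*-NSKO against 3 control mice. All 10 intervals include 0, and those of *Trib3* and *Chac1* are the widest.

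CPM below are counts divided by the library total after TMM scaling. Counts on genes ranged from 14431260 to 20844267 per mouse, with the lowest totals in control mice 2 and 3. For *Slc39a8* itself, 99, 46, and 44 counts were assigned in control mice 1 to 3 against 38, 40, and 41 in the 3 *Slc39a8*-NSKO mice, and on the CPM scale the latter were all below the former (log2 fold change −0.83, SE 0.237, adjusted p = 0.534 from edgeR, and −0.56 without control mouse 1). Markers of cerebellar granule cells (*Gabra6*, *Cbln1*, *Cbln3*, *Neurod1*, *Zic1*) were abundant in all 6 mice, with a summed level of 4446 to 4842 CPM. Among 8 marker lists, the summed levels of 3 did not overlap between the genotypes. They were 0.771 to 1.67 CPM in control and 10.01 to 12.6 CPM in *Slc39a8*-NSKO mice for 5 heart muscle genes, 48.2 to 54.1 and 56.6 to 60.9 CPM for 4 microglia genes, and 1727 to 2023 and 2056 to 2128 CPM for 4 genes of Bergmann glia and astrocytes. In edgeR's test, all 3 heart muscle genes tested passed the threshold, namely *Myh6*, *Actc1*, and *Tnnt2* (adjusted p = 0.00063, 0.022, and 0.034). *Myl7* and *Nppa* had too few counts to be tested. Of the microglia genes 0 passed, and of those of Bergmann glia and astrocytes also 0. Taken singly, *Csf1r* (log2 fold change 0.25), *Aqp4* (0.20), and *Gfap* (0.40) did not overlap between the genotypes. The remaining genes of these lists overlapped, namely *Cx3cr1*, *P2ry12*, *Tmem119*, *Gdf10*, and *Slc1a3*. The summed levels of the other 5 lists overlapped. Among these, 5 choroid plexus genes summed to 757 to 1091 and 883 to 1529 CPM, with a median log2 fold change of 0.42, and 1 of them, *Folr1*, was higher in all 3 *Slc39a8*-NSKO mice (0.96, adjusted p = 0.228 from edgeR). *Ttr*, *Kl*, *Aqp1*, and *Otx2* overlapped between the genotypes, and the estimate of *Otx2* was below 0 (−0.062). Without overlap, as for *Folr1*, 5.08% of all genes tested were above the controls and 5.26% below. These shares are of single genes and not of summed lists. No marker of the 8 lists was at 0 in all mice. The part of these differences in the values below was not tested.

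The promoters of the 10 genes were searched for short DNA elements that are textbook binding sites of the factors of both responses. The ER stress element (ERSE, CCAAT and CCACG parted by 9 bases) and its compact form (ERSE-II, ATTGG and CCACG parted by 1 base) are bound by ATF6 with the factor NF-Y, and the C/EBP-ATF element (CARE, here TGATGNAA) is bound by ATF4 with its partners. They were searched on both strands in the 250 bases before the RefSeq start of each gene (GRCm38.p6). All 10 genes had such a window among the 32851 windows of the RefSeq table. ERSE was found in 0.113% of all windows and in 2 of the 10, ERSE-II in 0.0304% and in 1 of the 10, and CARE in 3.45% and in 3 of the 10. No match overlapped another. The UPRE letters TGACGTGG, a site for XBP1 and ATF6, were found in 0.563% of windows, and the cAMP-responsive letters TGACGTCA in 1.55%, in each case in none of the 10. The stretches with a match are shown so that the letters of each element can be compared between genes, and a match describes the sequence and not binding. They run 5′ to 3′ on the strand of the gene, with the matches in capitals. The stretches of *Hspa5* and *Asns* precede the RefSeq start but lie within the GENCODE spans given below, which begin further upstream.
*Hspa5*, chr2:34772020-34772048, plus strand, 1 ERSE: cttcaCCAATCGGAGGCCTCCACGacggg
*Hsp90b1*, chr10:86705513-86705676, minus strand, an ERSE on each strand: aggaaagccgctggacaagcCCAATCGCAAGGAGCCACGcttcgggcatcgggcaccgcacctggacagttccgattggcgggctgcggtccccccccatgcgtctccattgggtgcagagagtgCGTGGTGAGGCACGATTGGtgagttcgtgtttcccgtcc
*Herpud1*, chr8:94386297-94386407, plus strand, a CARE on the opposite strand followed by an ERSE-II: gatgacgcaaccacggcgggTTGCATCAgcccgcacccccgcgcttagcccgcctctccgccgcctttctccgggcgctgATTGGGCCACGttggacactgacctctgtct
*Asns*, chr6:7693214-7693243, minus strand, 1 CARE: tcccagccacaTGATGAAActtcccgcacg
*Chac1*, chr2:119351029-119351076, plus strand, a CARE on the opposite strand: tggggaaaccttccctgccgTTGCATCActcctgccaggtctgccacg
The windows of *Atf4*, *Ddit3*, *Trib3*, *Sesn2*, and *Xbp1* held none of these letters, which says nothing of sites elsewhere or in other spellings.

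*Atf4* and *Ddit3* encode the transcription factors of the integrated stress response. *Atf4* (ENSMUSG00000042406.8, chromosome 15 of GRCm38, 80255184 to 80257541) had 168, 176, and 168 CPM in control mice 1 to 3 and 156, 171, and 162 CPM in *Slc39a8*-NSKO mice 1 to 3. *Slc39a8*-NSKO mouse 2 exceeded 2 of the control mice, so the genotypes overlapped. The means were 170 ± 4.89 and 163 ± 7.35 CPM (SD, n = 3 each), and the log2 fold change (*Slc39a8*-NSKO over control) was −0.064 (standard error, SE, of 0.054, 95% interval −0.18 to 0.052, adjusted p = 0.994 from edgeR). The upper bound corresponds to a fold of 1.04. *Ddit3* (ENSMUSG00000025408.15, chromosome 10, 127290774 to 127296288) encodes CHOP, which promotes cell death when stress lasts. Its values were 26.5, 25.9, and 27.1 CPM in control against 22.5, 26.7, and 25.98 CPM in *Slc39a8*-NSKO mice, and the lowest of the 6 was *Slc39a8*-NSKO mouse 1. The log2 fold change was −0.081 (SE 0.082, 95% interval −0.26 to 0.096, adjusted p = 0.994 from edgeR). *Ddit3* overlaps *Mars* and *Gm4189* on the other strand, and whether the counting used strand is not stated in the sources used here. A second annotated gene of the same name, ENSMUSG00000116429.1, covers 105 exonic bases that lie within *Ddit3* and had 0 counts in each mouse (a count of 0 allows up to 3).

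*Asns*, *Trib3*, *Chac1*, and *Sesn2* are transcribed under the control of ATF4. *Asns* (ENSMUSG00000029752.12, chromosome 6, 7675169 to 7693254) encodes asparagine synthetase, a marker of amino acid shortage. It had 70.8, 64.1, and 66.7 CPM in control mice and 71.5, 69.7, and 68.7 CPM in *Slc39a8*-NSKO mice. All 3 *Slc39a8*-NSKO values were above the control mean, but 2 of them lay below control mouse 1. The log2 fold change was 0.057 (SE 0.060, 95% interval −0.072 to 0.19, adjusted p = 0.994 from edgeR). *Sesn2* (ENSMUSG00000028893.8, chromosome 4, 132492032 to 132510501) encodes sestrin 2, a leucine sensor that restrains mTORC1. With 24.8, 22.9, and 26.9 CPM in control and 23.9, 27.3, and 27.6 CPM in *Slc39a8*-NSKO mice, its groups overlapped, and the log2 fold change was 0.079 (SE 0.087, 95% interval −0.11 to 0.27, adjusted p = 0.994 from edgeR).

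*Trib3* was the only one of the 10 whose genotypes did not overlap. It encodes a pseudokinase that is induced by ATF4 and CHOP and restrains them in turn (ENSMUSG00000032715.9, chromosome 2, 152337422 to 152344032). Its counts were few, namely 27, 14, and 24 in the controls and 31, 52, and 34 in *Slc39a8*-NSKO mice. These corresponded to 1.30, 0.974, and 1.54 CPM in control and 1.55, 2.67, and 1.81 CPM in *Slc39a8*-NSKO mice. The groups were parted by the small gap between control mouse 3 and *Slc39a8*-NSKO mouse 1, whose 95% Poisson intervals were 0.988 to 2.29 and 1.05 to 2.20 CPM and cover counting error only. The means were 1.27 ± 0.286 and 2.01 ± 0.586 CPM (SD, n = 3 each), and the log2 fold change was 0.65 (SE 0.305, 95% interval −0.0078 to 1.31). The unadjusted p was 0.0524 and the adjusted p 0.916 from edgeR, and an exact two-sided permutation test gave p = 0.1, the smallest that 3 mice against 3 allow. Among all genes, 5.08% had all 3 *Slc39a8*-NSKO mice above all controls and 5.26% had them below, so that 1 of the 10 in 1 direction and 0 in the other is close to the background. *Slc39a8*-NSKO mouse 2 carried much of the difference, and leaving it out gave a log2 fold change of 0.39 (adjusted p = 0.995 from edgeR).

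*Chac1* had the second largest estimate. It encodes an enzyme that degrades glutathione (ENSMUSG00000027313.3, chromosome 2, 119351229 to 119354381). Control mice had 6.85, 7.86, and 7.77 CPM, and *Slc39a8*-NSKO mice had 9.21, 9.55, and 7.22 CPM. *Slc39a8*-NSKO mice 1 and 2 were above every control mouse, whereas mouse 3 was below 2 of them. The means were 7.50 ± 0.558 and 8.66 ± 1.26 CPM (SD, n = 3 each), with a log2 fold change of 0.21 (SE 0.142, 95% interval −0.090 to 0.52, adjusted p = 0.994 from edgeR). It was 0.33 without *Slc39a8*-NSKO mouse 3 and 0.14 without mouse 2, with an adjusted p above the threshold in both fits.

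**Figure D2:**
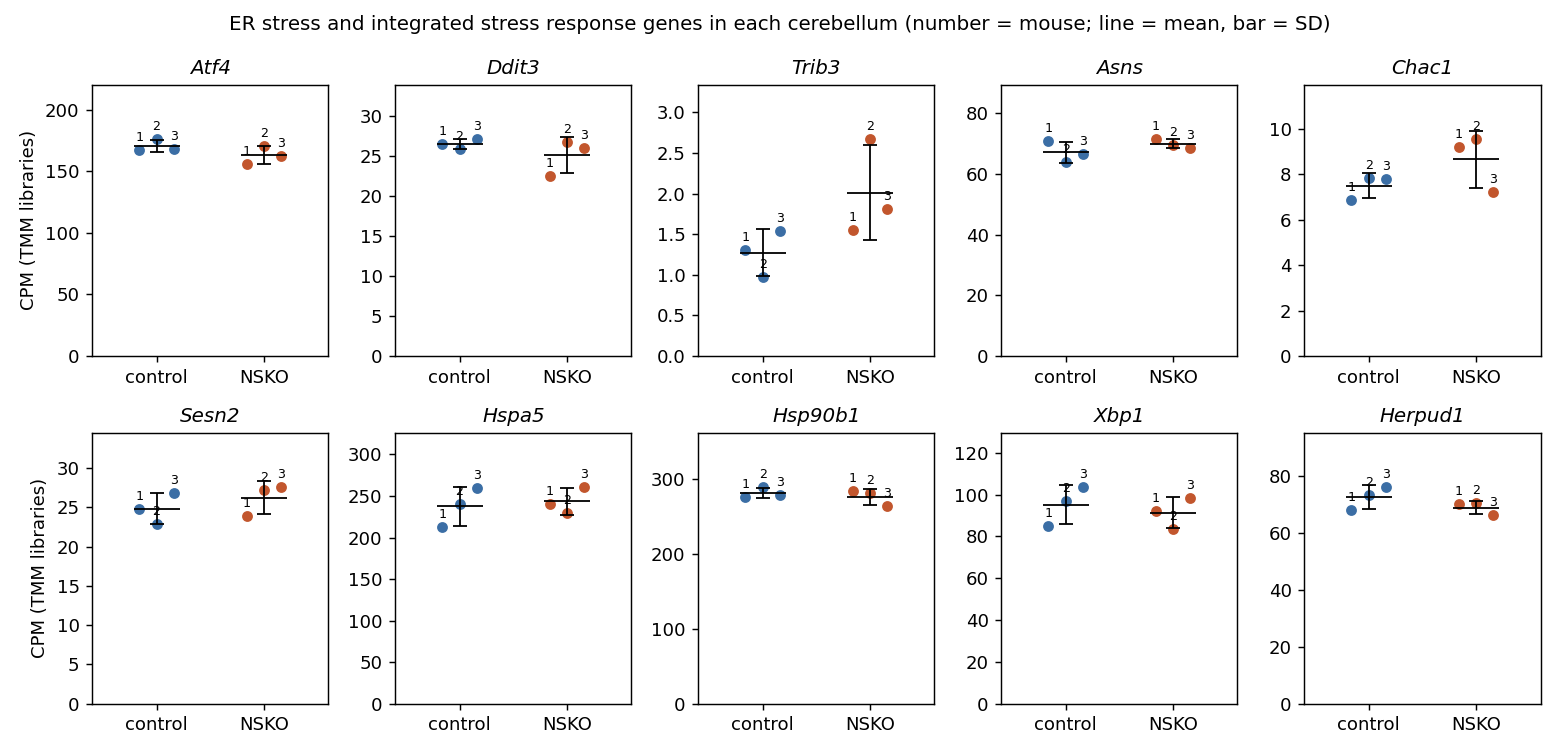
CPM of each gene in each mouse (points, numbered by mouse), with the mean (line) and SD (bar) of 3 control and 3 *Slc39a8*-NSKO mice, on linear axes that start at 0. The genotypes overlap for 9 genes, and for *Trib3* the lowest *Slc39a8*-NSKO value (1.55 CPM) is next to the highest control value (1.54 CPM).

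*Hspa5* and *Hsp90b1* encode the abundant ER chaperones BiP and GRP94, the classical readouts of ATF6 and the genes whose promoters hold the ERSE shown above. *Hspa5* (ENSMUSG00000026864.13, chromosome 2, 34771970 to 34777547) had 213, 240, and 260 CPM in control and 241, 229, and 261 CPM in *Slc39a8*-NSKO mice. The control mice spanned nearly the whole range, with mouse 1 the lowest and mouse 3 close to the highest. The means were 238 ± 23.4 and 244 ± 16.2 CPM (SD, n = 3 each), which gave a log2 fold change of 0.037 (SE 0.072, 95% interval −0.12 to 0.19, adjusted p = 0.994 from edgeR). The interval corresponds to folds between 0.922 and 1.14. *Hsp90b1* (ENSMUSG00000020048.13, chromosome 10, 86690209 to 86705509) had 277, 290, and 279 CPM in control and 284, 281, and 264 CPM in *Slc39a8*-NSKO mice. The spread was small in both groups, with a coefficient of variation of 2.46% in control and 3.87% in *Slc39a8*-NSKO mice. Its log2 fold change was −0.026 (SE 0.051, 95% interval −0.14 to 0.084, adjusted p = 0.994 from edgeR). Its counts were not whole numbers in any mouse, and 632 of its 4032 exonic bases are shared with *Gm15344*, *Gm25745*, or *1810014B01Rik*, and RSEM may have split reads between these loci.

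*Xbp1* and *Herpud1* represent the IRE1 branch and ER-associated degradation, in which misfolded proteins are passed to the proteasome. *Xbp1* (ENSMUSG00000020484.18, chromosome 11, 5520659 to 5525893) is induced by ATF6 and activated when IRE1 removes 26 bases from its mRNA. These are bases 815 to 840 of the 2129 of GENCODE transcript Xbp1-201, found as the stretch between 2 CNGCAGC cleavage loops and given in capitals.
*Xbp1* bases removed by IRE1: cgCAGCACTCAGACTATGTGCACCTCTGca
The counts per gene add both forms of the mRNA, so that splicing cannot be read from them. *Xbp1* had 85.2, 96.8, and 104 CPM in control and 92.1, 83.6, and 98.5 CPM in *Slc39a8*-NSKO mice. The lowest and the second lowest value came from different genotypes, and the log2 fold change was −0.057 (SE 0.078, 95% interval −0.23 to 0.11, adjusted p = 0.994 from edgeR). *Herpud1* (ENSMUSG00000031770.16, chromosome 8, 94386438 to 94395377) encodes an ER membrane protein of the degradation machinery. Its values were 68.1, 73.6, and 76.3 CPM in control and 70.1, 70.5, and 66.3 CPM in *Slc39a8*-NSKO mice, all 3 of the latter below the control mean but 2 above control mouse 1. The log2 fold change was −0.074 (SE 0.062, 95% interval −0.21 to 0.060, adjusted p = 0.994 from edgeR).

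In RPKM, which divide CPM by the merged exon length of the gene, the 10 genes covered a 97.6-fold range of levels in the cerebellum. *Atf4* stood first with a median over the 6 mice of 71.1 RPKM (range 66.1 to 74.7), followed by *Hsp90b1* with 69.5 RPKM (65.6 to 71.8), and the ranges of these neighbours overlapped. *Hspa5* came next with 56.8 RPKM (50.4 to 61.7), below the range of *Hsp90b1*. A middle group of *Herpud1*, *Xbp1*, and *Asns* had medians of 30.1, 29.1, and 25.3 RPKM, and each overlapped its neighbour. *Ddit3* (15.3 RPKM), *Sesn2* (7.43 RPKM), *Chac1* (4.77 RPKM), and *Trib3* (0.728 RPKM) followed, and none of these 4 overlapped the next. *Atf4* was in the 96.6th percentile of the mean RPKM of all genes tested, and *Trib3* in the 19.3rd. The order depends on the length used. In CPM, the means of *Hsp90b1* and *Hspa5* were above that of *Atf4* in both genotypes. The merged exons of *Xbp1* cover 3248 bases, against 2129 for transcript Xbp1-201.

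By edgeR's estimate, the spread between mice was widest for the 2 least abundant genes. The biological coefficient of variation that edgeR estimated was 0.048 for *Hsp90b1*, 0.049 for *Atf4*, and 0.051 for *Asns*, which put these genes in the 4.08th, 7.05th, and 11.3rd percentile of all genes. It was 0.105 for *Chac1* and 0.197 for *Trib3*, in the 65.6th and 87.9th percentile. The plain coefficient of variation of *Chac1* in control mice was 7.44%, below *Hspa5* (9.87%), *Xbp1* (9.83%), and *Sesn2* (8.02%). In *Slc39a8*-NSKO mice that of *Chac1* was 14.5%, below only *Trib3* (29.2%). Deviations of log2(CPM + 0.5) from the mean over the 6 mice separated the genotypes for *Trib3* and overlapped for the other 9 genes. All 4 ER genes were below their mean in control mouse 1, with a median deviation of −0.090, while their median was 0.11 in control mouse 3. Control mice 1 and 3 thus differed by more than any 2 *Slc39a8*-NSKO mice, whose medians for these genes lay between −0.036 and 0.0021. For the 6 genes of the integrated stress response, *Slc39a8*-NSKO mouse 2 was above the mean in 6 of 6 (median deviation 0.075), but *Slc39a8*-NSKO mouse 1 in only 2 (median −0.056), close to control mouse 2 (median −0.062).

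**Figure D3:**
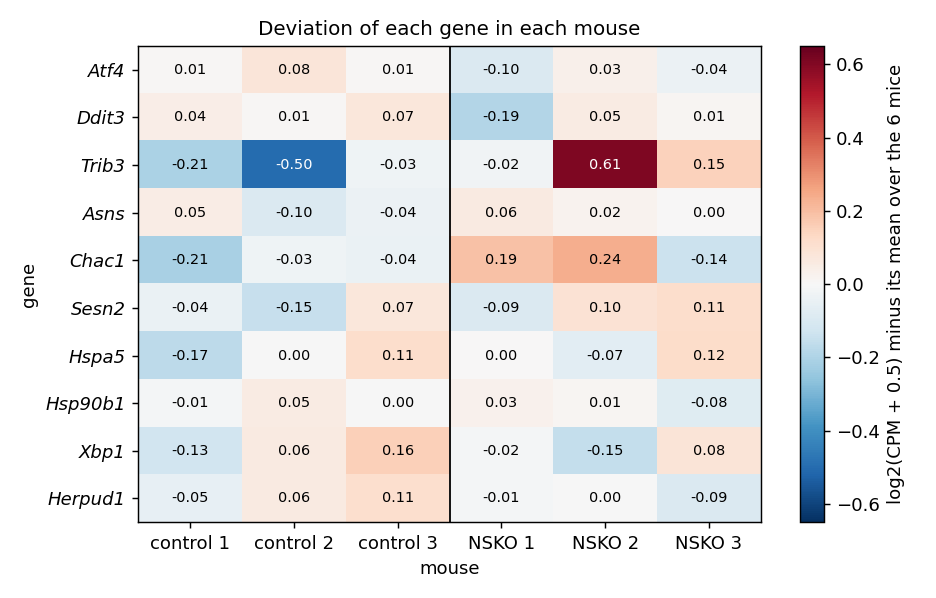
Deviation of log2(CPM + 0.5) of each gene (rows) in each mouse (columns) from the mean of that gene over the 6 mice, with red above and blue below the mean. The largest deviations are those of *Trib3*, and the 4 ER genes at the bottom are all below their mean in control mouse 1.

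The surrounding pathways were described with 10 lists that hold 125 other genes, of which 123 were tested. None of the 123 passed the threshold in edgeR's test, 3 had an unadjusted p below 0.05, and DESeq2 called 1 and limma-voom 0. Of the 123, 61 had a log2 fold change above and 62 below 0, with a median of −0.00063. Higher in every *Slc39a8*-NSKO mouse were 8 and lower were 6, shares near those of all genes. *Ern2* and *Fgf21* had too few counts to be tested.

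The 16 genes of the list of eIF2 kinases, eIF2 and eIF2B subunits, and phosphatase subunits had a median log2 fold change of −0.013, with 6 above and 10 below 0. Of the kinases, PERK (*Eif2ak3*) was 37.0 CPM in control and 40.9 CPM in *Slc39a8*-NSKO mice (log2 fold change 0.14, adjusted p = 0.987 from edgeR), and the double-stranded RNA sensor PKR (*Eif2ak2*) was 6.46 and 7.65 CPM (0.23, adjusted p = 0.983). The lowest p below 0 was that of *Impact*, an inhibitor of the kinase GCN2, with 128 and 118 CPM (−0.11, adjusted p = 0.916). *Ppp1r15a*, whose protein GADD34 restores eIF2, was 30.1 and 26.9 CPM (−0.17, adjusted p = 0.968). Among the 93 listed pathway genes with a promoter window, only that of *Ppp1r15a* held the cAMP-responsive letters, which 1.55% of all windows held. Of 8 sensors and proteases of the unfolded protein response tested, 5 were above and 3 below 0, led by *Atf6* at 60.3 and 67.0 CPM (0.15, adjusted p = 0.943) and *Creb3* at 46.5 and 44.0 CPM (−0.077, adjusted p = 0.994).

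The machinery of the ER was described with 3 lists. Among 18 chaperones and oxidoreductases, 9 were above and 9 below 0 (median 0.0049), between −0.14 and 0.14. Their lowest p values in each direction were those of the disulfide isomerases *Pdia6*, with 72.2 CPM in control and 77.4 CPM in *Slc39a8*-NSKO mice (0.10, adjusted p = 0.974 from edgeR), and *Pdia4*, with 32.9 and 29.9 CPM (−0.14, adjusted p = 0.974). The 17 genes of ER-associated degradation had a median of −0.0031 and a range from −0.33 to 0.064, the lowest being *Derl3* at 0.878 and 0.704 CPM (adjusted p = 0.994). Their lowest p values in each direction were those of the ATPase *Vcp*, with 252 and 264 CPM (0.064, adjusted p = 0.994), and of *Vimp* (selenoprotein S), with 66.8 and 64.2 CPM (−0.060, adjusted p = 0.994). The 14 genes of the translocon and signal peptidase had a median of 0.0097, with *Sec61g* at 0.11 and *Sec63* at −0.043 on the log2 scale. The 9 mitochondrial chaperones and proteases had a median of −0.022, with *Hspa9* at 0.024 and *Htra2* at −0.086.

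Genes that serve amino acid supply were described with 3 lists. The 11 enzymes of amino acid and one-carbon metabolism had a median log2 fold change of −0.034 and a range from −0.15 to 0.075, with the lowest p values in each direction at *Aldh18a1* (0.075), which serves proline synthesis, and *Psph* (−0.12), which serves serine synthesis. The 12 cytosolic tRNA synthetases lay between −0.094 and 0.045, with *Aars* at 0.045 and *Cars* at −0.094. Of 9 amino acid transporters, 6 were above and 3 below 0 (median 0.052), and *Slc3a2*, the shared heavy chain of several of them, was at −0.049. *Slc1a5*, a carrier of neutral amino acids, had the highest estimate of the list, with 2.46 CPM in control and 3.26 CPM in *Slc39a8*-NSKO mice (0.41, adjusted p = 0.993 from edgeR). *Slc7a3*, a carrier of cationic amino acids, had 8.45, 9.46, and 8.80 CPM in control and 10.7, 12.2, and 10.8 CPM in *Slc39a8*-NSKO mice. These groups did not overlap, and the log2 fold change was 0.34 (SE 0.117, unadjusted p = 0.0119, adjusted p = 0.804 from edgeR).

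Of 9 stress transcription factors and secreted stress genes tested, 4 were above and 5 below 0 (median −0.0056), and the lowest p above 0 was that of the nuclear protein gene *Nupr1* (0.20, adjusted p = 0.994 from edgeR). *Ddit4* and *Atf3* had the lowest p values of all pathway genes, and for both all 3 *Slc39a8*-NSKO mice were below all 3 controls. *Ddit4*, an inhibitor of mTORC1 that stress and glucocorticoids induce, had 108, 106, and 118 CPM in control and 73.8, 92.1, and 87.7 CPM in *Slc39a8*-NSKO mice. Its log2 fold change was −0.39 (SE 0.078, unadjusted p = 0.00022, adjusted p = 0.12 from edgeR), not past the threshold. The threshold was passed in 3 of 14 alternative fits. These were DESeq2 (adjusted p = 0.00473), no filter on low counts (2.49e-06), and the replicate number as a block (0.0405). It was not passed with limma-voom (0.128) or in the other fits on all mice. With each mouse left out, the adjusted p from edgeR was at least 0.103. *Atf3*, a transcription factor that stress and neuronal activity induce, was 2.15 CPM in control and 1.13 CPM in *Slc39a8*-NSKO mice. Its log2 fold change was −0.92 (SE 0.261, adjusted p = 0.534 from edgeR). Both lay on the opposite side of 0 from *Trib3* and *Chac1*, although all 4 are counted as targets of ATF4.

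**Figure D4:**
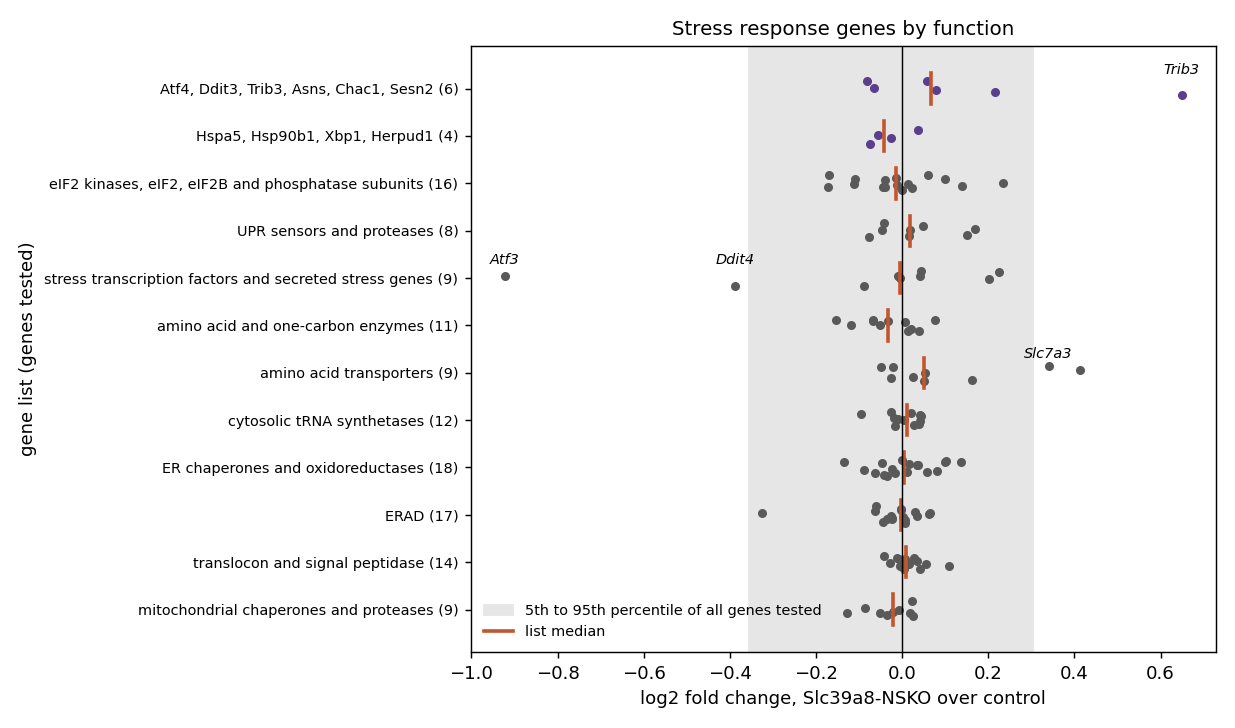
Log2 fold change of each tested gene (points) by list, with the 10 stress genes in purple and other genes in grey, the list median (orange line) and the range from the 5th to the 95th percentile of all genes tested (grey, −0.36 to 0.30). The medians of all lists lie near 0, and *Trib3*, *Atf3*, *Ddit4*, *Slc7a3*, and the amino acid transporter *Slc1a5* lie outside the grey range.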

How the data were processed

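The submitters' processing notes name FastQC, STAR, RSEM, DESeq2, and the build mm10, and the versions are not given in the sources used here. The authors deposited expected counts per gene, estimated by RSEM from paired-end reads of oligo-dT-primed cDNA and not scaled for library size or gene length. These were rounded to whole numbers. The table's 92 spike-in rows were left out. Names and positions came from GENCODE M21 (GRCm38), which held 53620 of 53715 genes.

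Genes kept by filterByExpr were tested with edgeR 4.0.16 in R 4.3.3 (TMM, glmQLFit, and glmQLFTest, no covariate, Benjamini-Hochberg over all genes, threshold 0.05). CPM refer to TMM-scaled libraries, and RPKM divide CPM by the merged exon length. Standard errors and 95% intervals follow from the same fit. Alternatives used DESeq2 1.42.0 and limma 3.58.1 (voom), other normalizations and filters, unrounded counts, a replicate block, and each mouse left out. The scripts were tested on simulated data.

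The members and lists were chosen with earlier results of these data known. Named were the 10 members, *Slc39a8*, and, per list, genes past the threshold and those with the lowest p in each direction. *Atf3*, *Eif2ak3*, *Ppp1r15a*, *Slc1a5*, *Derl3*, and *Folr1* are not covered by that rule and were picked once the values were known. Other marker genes are named to show which members of their lists overlapped, passed, or were not tested. Alignment, annotation release, and strand setting can move reads between overlapping or similar genes. A further marker list is not reported here.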

Additional observations from a re-analysis of the deposited data

How the results depend on the processing

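None of the 10 stress genes passed in any of the 15 alternatives, and their signs held in all 14 alternatives with a fold change for *Atf4*, *Ddit3*, *Trib3*, *Asns*, *Chac1*, *Sesn2*, and *Herpud1*. Estimates next to 0 changed sign in single fits, namely *Hspa5* (log2 fold change −0.036 when control mouse 1 and −0.015 when *Slc39a8*-NSKO mouse 3 was left out, range up to 0.11), *Xbp1* (0.011 when control mouse 3 and 0.0033 when *Slc39a8*-NSKO mouse 2 was left out, range down to −0.13), and *Hsp90b1* (0.0061 when *Slc39a8*-NSKO mouse 3 was left out, range down to −0.044). The median over the 10 lay between −0.037 (without control mouse 1) and 0.032 with each mouse left out. Over all genes, 16 passed in edgeR, 37 with DESeq2, 178 without a filter on low counts, and 27 at a threshold of 0.1, and with each mouse left out between 9 (*Slc39a8*-NSKO mouse 2 out) and 38 (control mouse 1 out). The cause was not tested. Of the pathway genes only *Ddit4* passed in any alternative, in 3 of the 14 with a fold change. These were DESeq2 (adjusted p = 0.00473), no filter (2.49e-06), and the replicate block (0.0405). Its adjusted p ranged up to 0.458 over all alternatives. With the replicate block 41 genes passed over all genes. Same-numbered mice correlated at 0.167, 0.128, and 0.0104 in their deviations from the group means. The mice numbered 1 correlated best with each other, as did those numbered 2, whereas those numbered 3 did not. The sources used here do not say that the numbers pair mice, so the main fit did not pair them, and pairing could not be settled. *Slc39a8* stayed lower and not past the threshold in each fit. Depth limits *Trib3* most, at 14 to 52 counts per mouse.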

Other observations

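All genes with a stress element in the 250 bases before their RefSeq start, and not only those of the lists, were also described. ERSE was present for 35 genes, of which 19 were tested, 7 above and 12 below 0, with a median log2 fold change of −0.034 and a range from −0.33 to 0.37. Among the 93 listed pathway genes with a window, 7 carried it, namely the chaperones *Calr*, *Canx*, *Creld2*, *Dnajc3*, and *Pdia6* and the degradation genes *Derl3* and *Syvn1*. ERSE-II was present for 10 genes, of which 7 were tested, 3 above and 4 below 0, with a median of −0.029. CARE was present for 1056 genes, of which 282 were tested, 144 above and 138 below 0, with a median of 0.0018. Its range was from −0.92, the value of *Atf3*, to 0.86, and 12 of the 93 listed pathway genes carried it. UPRE was present for 163 genes, 104 of them tested, with a median of 0.018, and the cAMP-responsive letters for 478 genes, 348 of them tested, with 148 above and 200 below 0 and a median of −0.014. None of the genes in these groups passed the threshold in edgeR's test. Of all genes tested, 50.5% had a log2 fold change above 0, and the median was 0.0011. Whether any of these groups differed from that background was not tested.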
